A study of Mus musculus with 9 samples.

Results

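Asns, the enzyme that makes asparagine, and 8 other genes of the amino acid response run by the transcription factor Atf4 were followed in fibroblastic reticular cells of lymph nodes draining a tumour. Asns was chosen by its measured rise at day 11 against PBS on these arrays, so its values are given as a description with no test. The other genes, Atf4, Ddit3, Trib3, Chac1, Psat1, Phgdh, Slc7a11 and Sesn2, were chosen by function with earlier results of these data known. The 9 genes were taken with every probe that the platform annotation assigns to them, out of 19057 named genes on the array. They had 21 probes, of which 12 passed the detection filter, and 6 of the 9 genes had at least 1 such probe.

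Fibroblastic reticular cells (FRCs) are the stromal cells that build the scaffold of the lymph node and guide lymphocytes through it. They came from female C57BL/6 mice. Each array held amplified RNA from the cells of 1 animal, for which 2 brachial nodes were pooled, and the arrays were Illumina bead arrays. There were 3 groups of 3 arrays: nodes draining a site given PBS, tumour-draining nodes at day 4 and tumour-draining nodes at day 11. The labels give no day for the PBS group. The kind of tumour, the animals' age and how the cells were isolated are not given in the sources used here.

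Atf4 is the central transcription factor of the integrated stress response. When an amino acid runs short or the endoplasmic reticulum is stressed, kinases phosphorylate the initiation factor eIF2, most translation slows, and the Atf4 message is translated more, so Atf4 activity can change with little change of its mRNA. Atf4 then binds C/EBP-ATF response elements and turns on genes for amino acid synthesis, amino acid uptake and tRNA charging, together with feedback and cell death regulators.

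The promoter sequences below are shown because that response element lies there. A motif search used the letters TGATGNAA, the core of the element as searched here, on both strands of windows from 250 bases before to 50 bases after each RefSeq start site in GRCm38.p6. All 9 genes had a window, and 4 held a match, in Asns, Trib3, Chac1 and Slc7a11. Of all 32851 windows, 1304 held a match, which is 3.97%, and 4.51% of the 27025 genes had one. Among the 44 genes of the wider Atf4 lists with a window, 14 had a match. The whole Asns window lies on the minus strand of chromosome 6, at chr6:7693160-7693459, and each sequence is printed 5′ to 3′ in the direction of the gene with matches in capitals:
Asns: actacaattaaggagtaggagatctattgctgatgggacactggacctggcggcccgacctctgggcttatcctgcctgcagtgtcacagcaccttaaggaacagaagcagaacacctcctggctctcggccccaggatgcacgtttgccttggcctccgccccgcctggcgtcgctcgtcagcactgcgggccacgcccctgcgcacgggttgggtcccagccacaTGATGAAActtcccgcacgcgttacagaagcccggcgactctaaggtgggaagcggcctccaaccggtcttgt
Its match begins 23 bases before the start site.

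Shorter stretches around the other matches are given for comparison with it. The Trib3 stretch is on the minus strand at chr2:152344013-152344072, the Chac1 stretch on the plus strand at chr2:119351023-119351082 and the Slc7a11 stretch on the minus strand at chr3:50443627-50443705:
Trib3: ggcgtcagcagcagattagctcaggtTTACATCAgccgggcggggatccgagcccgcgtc
Chac1: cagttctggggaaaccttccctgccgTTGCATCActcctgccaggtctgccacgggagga
Slc7a11: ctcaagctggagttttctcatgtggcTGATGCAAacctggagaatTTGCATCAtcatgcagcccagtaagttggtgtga
The Slc7a11 stretch holds a match on each strand. Atf4, Ddit3, Psat1, Phgdh and Sesn2 had no match, which says only that these letters are not in their windows. A match is a description of the sequence and not a measured binding site.

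Values below are normalized log2 intensities, and a change is a difference of group means on that scale with its standard error (SE). A probe was called detected on an array when its detection p was under 0.01, and a gene was read from its tested probe with the highest mean. Between 9606 and 17627 of 45281 probes were detected per array, and the number was lowest on 2 of the day 11 arrays and on PBS replicate 1. The dimmest detected probe stood at 6.50 on PBS replicate 1 and at 5.71 and 5.86 on the other PBS arrays, so PBS replicate 1 stood apart among them. It stood at 5.57, 5.88 and 5.83 on the day 4 arrays and at 6.56, 5.95 and 6.88 on the day 11 arrays. The limit of detection was thus higher still on day 11 replicates 1 and 3. Many changes moved by over 1.5 times when PBS replicate 1 or another single array was left out. Values without such an array are printed beside many of them. Of the FRC markers, 10 of 10 were detected on at least some arrays, with summed linear levels of 20300 to 23400 in PBS, 23000 to 24600 at day 4 and 21700 to 25300 at day 11. The sums hide single markers: 4 of 10 were higher at day 11 than in PBS, with a median of -0.02. Thy1 (1.53), Pdpn (0.74) and Col3a1 (0.55) lay above PBS on all day 11 arrays (limma adjusted p 0.217, 0.378 and 0.487). For comparison, groups did not overlap in 18.2% of all genes. The PBS arrays serve in both tumour comparisons, and the day 11 arrays in both comparisons that involve them. The cells are a bulk sample, in which a larger share of a cell type and more RNA per cell cannot be told apart.

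The day 11 difference that singled out Asns was found on the brightest of its 3 probes. That probe read 4.83, 6.04 and 5.77 on the 3 PBS arrays, 5.83, 6.30 and 5.80 at day 4, and 7.35, 7.49 and 7.99 at day 11. The day 11 arrays lay above all others, while PBS and day 4 overlapped. On the raw linear scale the PBS arrays averaged 112.4 ± 28.6 (SD, n = 3), the day 4 arrays 133.1 ± 25.9 and the day 11 arrays 297.9 ± 60.8. Raw values are not normalized between arrays, and the day 11 arrays were brighter as a whole. The raw median of an array was 91.35 to 102.8 in PBS, 80.85 to 106.7 at day 4 and 115.2 to 151.1 at day 11. The probe was detected on 1 of 3 PBS arrays, 2 of 3 day 4 arrays and 3 of 3 day 11 arrays, so the PBS mean lies at the edge of detection. The normalized mean was higher by 2.07 (SE 0.364) at day 11 than in PBS, a 4.19-fold difference, and higher by 1.64, or 3.11-fold, than at day 4. Day 4 stood 0.43 above PBS, a 1.35-fold difference within the spread of the arrays. Without PBS replicate 1 the differences from PBS were 1.71 at day 11 and 0.07 at day 4. Without background correction, the day 11 differences were smaller, 1.21 against PBS and 0.97 against day 4.

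The second Asns probe was also highest at day 11, near the limit of detection. It read 4.59, 5.33 and 5.48 in PBS, 5.24, 4.77 and 5.28 at day 4, and 6.33, 6.58 and 6.47 at day 11. All day 11 arrays lay above the others, but the probe was detected on 1 array in all, day 11 replicate 2. It gives no order of PBS and day 4, and no fold is given for it. The third probe was detected on no array, with group means of 4.73, 4.63 and 4.77.

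**Figure D1:**
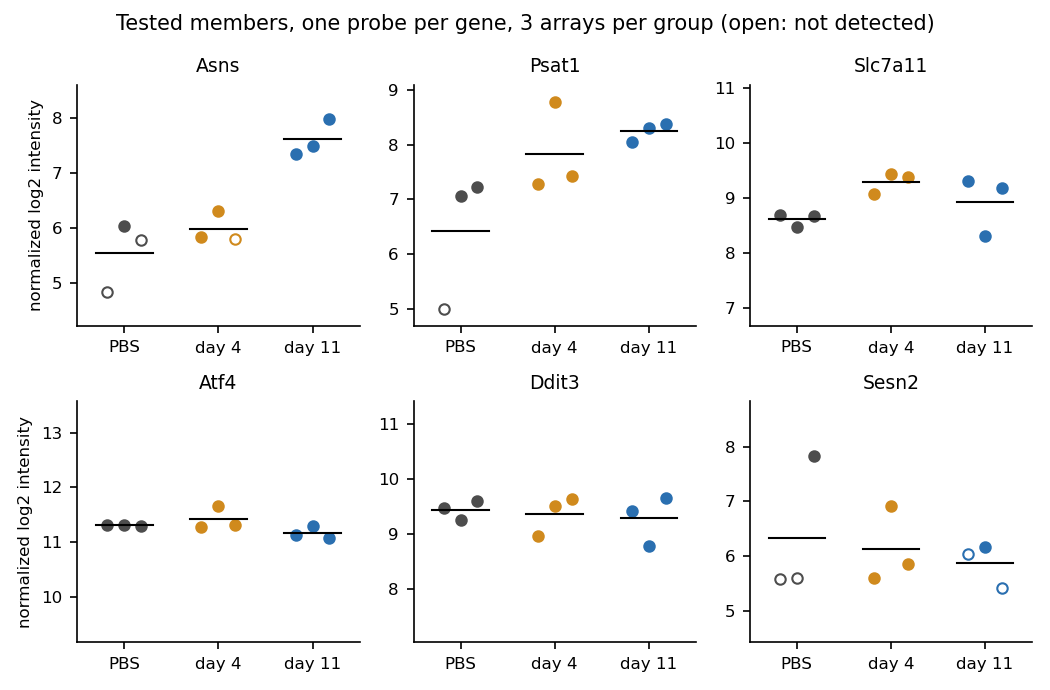
Normalized log2 intensity of the 6 tested genes by group, 1 point per array with open points not detected on that array and bars at group means; the vertical axes span the same number of log2 units from different starting points. Asns at day 11, from 7.35 to 7.99, lies clear of every PBS and day 4 array, while Atf4 stays between 11.08 and 11.67.

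Atf4, the transcription factor itself, had nearly level mRNA. Its brightest probe read 11.32, 11.32 and 11.29 in PBS, 11.28, 11.67 and 11.31 at day 4, and 11.14, 11.29 and 11.08 at day 11. The 3 groups overlapped. The change was -0.14 (SE 0.249) at day 11 against PBS, with a 95% interval from -0.70 to 0.41 and a limma adjusted p of 0.869, and 0.11 at day 4 (adjusted p 0.949), or -0.01 without day 4 replicate 2. Between the tumour groups, day 11 was lower than day 4 by -0.25 (adjusted p 0.906). The second Atf4 probe changed by -0.06 and 0.01 in the same comparisons against PBS.

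Ddit3 encodes CHOP, the Atf4 target that promotes cell death under lasting stress. It read 9.48, 9.26 and 9.60 in PBS, 8.97, 9.51 and 9.64 at day 4, and 9.42, 8.79 and 9.66 at day 11, and the groups overlapped throughout. Its change against PBS was -0.16 (SE 0.319, limma adjusted p 0.890) at day 11 and -0.07 (adjusted p 0.977) at day 4. The 95% interval at day 11 ran from -0.87 to 0.55, and the sign turned without day 11 replicate 2 (0.10) or, at day 4, without day 4 replicate 1 (0.13). The second, dimmer probe fell between 5.87 and 7.72 on all 9 arrays, with changes of -0.58 (adjusted p 0.626) at day 11 and -0.64 (adjusted p 0.735) at day 4.

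Psat1, which carries out the transamination step of serine synthesis, was the other gene with a large difference from PBS. Its single probe read 5.01, 7.06 and 7.23 in PBS, 7.29, 8.78 and 7.42 at day 4, and 8.05, 8.31 and 8.37 at day 11. Every tumour-group array lay above every PBS array, and the low value belonged to PBS replicate 1, where the probe was not detected. Against PBS the change was 1.81 (SE 0.592, limma adjusted p 0.354) at day 11 and 1.40 (SE 0.592, adjusted p 0.610) at day 4, so neither passed the adjusted threshold of 0.05. Without PBS replicate 1 the changes were 1.10 (adjusted p 0.440) and 0.69 (adjusted p 0.755), and the groups still did not overlap. Day 11 and day 4 differed by 0.41 (adjusted p 0.948), with overlapping arrays. In contrast to Asns, Psat1 was thus already above PBS on each day 4 array, though by as little as 7.29 against 7.23. Its day 4 change also moved by over 1.5 times without day 4 replicate 2. A difference in timing between the genes was not tested.

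Phgdh, the enzyme of the first step of serine synthesis, had 1 probe, detected on no array. It read 5.97, 5.09 and 5.18 in PBS, 5.47, 4.83 and 4.98 at day 4, and 4.78, 5.17 and 5.05 at day 11. These intensities give no order of the groups and no fold change.

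Slc7a11, the light chain of the cystine and glutamate exchanger, had 5 probes, of which 3 were tested. The brightest read 8.70, 8.47 and 8.67 in PBS, 9.08, 9.43 and 9.39 at day 4, and 9.32, 8.31 and 9.18 at day 11. All day 4 arrays lay above the PBS arrays, while the day 11 arrays spread from below PBS to the day 4 level. The change was 0.69 (SE 0.317, limma adjusted p 0.639) at day 4 and 0.32 (SE 0.317, adjusted p 0.743) at day 11. Leaving out 1 array moved the day 11 change between 0.13, without day 11 replicate 1, and 0.64, without day 11 replicate 2.

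The second Slc7a11 probe read 7.82, 7.43 and 7.97 in PBS, 8.61, 8.45 and 8.54 at day 4, and 8.16, 7.85 and 7.47 at day 11. Its day 4 arrays were again above PBS, by 0.79 (SE 0.284, limma adjusted p 0.523), and its day 11 arrays were all below day 4, by -0.71 (adjusted p 0.729). The third tested probe went the other way, with changes of -0.35 (adjusted p 0.869) at day 4 and -0.59 (adjusted p 0.604) at day 11. The 2 remaining probes were detected on no array. The probes of Slc7a11 thus disagreed in direction, and none passed the threshold.

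Sesn2, a stress-induced inhibitor of mTORC1 that senses leucine, was near the detection limit. The probe used read 5.59, 5.60 and 7.83 in PBS, 5.61, 6.92 and 5.86 at day 4, and 6.04, 6.17 and 5.43 at day 11. PBS replicate 3 alone set the high PBS mean. The change was -0.46 (SE 0.599, limma adjusted p 0.817) at day 11 and -0.21 (adjusted p 0.963) at day 4, and without PBS replicate 3 these became 0.28 and 0.53. Without PBS replicate 1 they were -0.84 and -0.59.

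The other tested Sesn2 probes did not settle a direction. One of them read 6.45, 5.99 and 6.88 in PBS and 5.40, 5.94 and 4.86 at day 4, with no overlap and a change of -1.04 (SE 0.367, limma adjusted p 0.515). At day 11 it read 5.64, 5.24 and 4.94 and was detected on no array, so no size is given there. The remaining probe changed by 0.05 (adjusted p 0.983) at day 4 and -0.30 (adjusted p 0.765) at day 11.

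Trib3, a pseudokinase that feeds back on Atf4 and Ddit3, had 3 probes and none passed the filter. The brightest read 4.76, 4.86 and 4.69 in PBS, 5.78, 6.65 and 4.66 at day 4, and 4.96, 4.85 and 4.69 at day 11. It was detected on day 4 replicates 1 and 2 and nowhere else, and the other 2 probes were detected on no array. Chac1, which breaks down glutathione, read 5.31, 5.12 and 4.69 in PBS, 5.17, 5.39 and 6.35 at day 4, and 5.22, 6.27 and 5.13 at day 11. It was detected on day 4 replicate 3 and day 11 replicate 2, a single array in each tumour group.

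**Figure D2:**
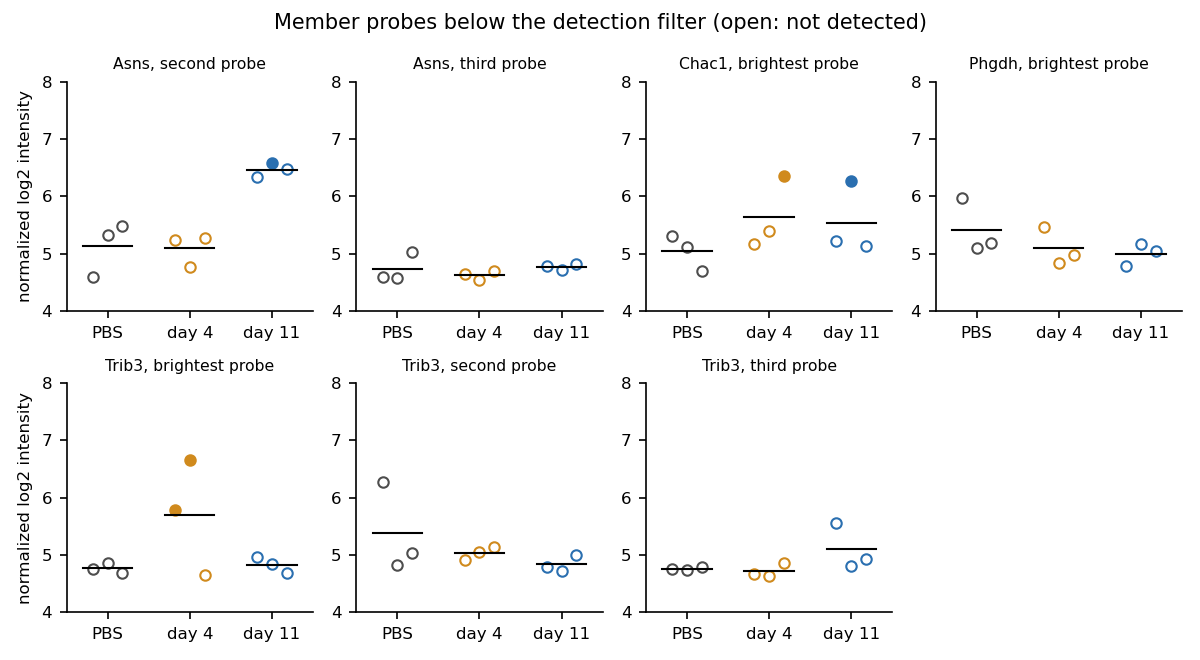
Normalized log2 intensity of the probes of Asns, Chac1, Phgdh and Trib3 that did not pass the detection filter, by group, with 1 point per array, filled where detected, and bars at group means. The second Asns probe reads from 6.33 to 6.58 at day 11, above its 6 other arrays, and Trib3 has 2 detected arrays, both at day 4.

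Set side by side, the 6 tested genes did not move as a group. Against PBS, 3 were higher and 3 lower at day 11, with a median change of 0.09, and 4 were higher and 2 lower at day 4, with a median of 0.27. At day 11 against day 4, 2 were higher and 4 lower, with a median of -0.17. Over all 8819 tested genes the medians were 0.053, 0.045 and 0.015 in the same order, and 54.1%, 53.8% and 51.5% of genes were higher. Asns, chosen by its day 11 value, enters the members' counts and medians and raises those that involve day 11. Of the other members at day 11 against PBS, Psat1 (1.81) and Slc7a11 (0.32) were higher. Atf4 (-0.14), Ddit3 (-0.16) and Sesn2 (-0.46) were lower.

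No member passed the limma adjusted p of 0.05 in any of the 3 comparisons, where the share of all genes that passed was 0.0113% at day 11 against PBS, 0% at day 4 against PBS and 0.0113% at day 11 against day 4. At an unadjusted p under 0.05 there were 2, 1 and 1 members in that order, against 10.3%, 7.99% and 6.45% of all genes. Members whose groups did not overlap numbered 2, 2 and 1, against 18.2%, 10.5% and 15.5% of all genes. Asns is among these counts at day 11, where its value chose it, so nothing is read from them.

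The wider Atf4 response was described from 6 lists with 56 genes, of which 50 were named on the array and 38 were tested. No gene in them passed the limma adjusted threshold in any comparison. At day 11 against PBS, 17 were higher and 21 lower, with a median of -0.05. At day 4 the numbers were 22 and 16, with a median of 0.06, and at day 11 against day 4 they were 18 and 20, with a median of -0.02. None of these medians is farther from 0 than 0.06. At an unadjusted p under 0.05, 2 were higher and 1 lower at day 11 against PBS, 2 higher and 2 lower at day 4, and 0 higher and 2 lower at day 11 against day 4. Of all tested genes, 10.3%, 7.99% and 6.45% had such a p in the same order, so nothing is read from these counts.

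**Figure D3:**
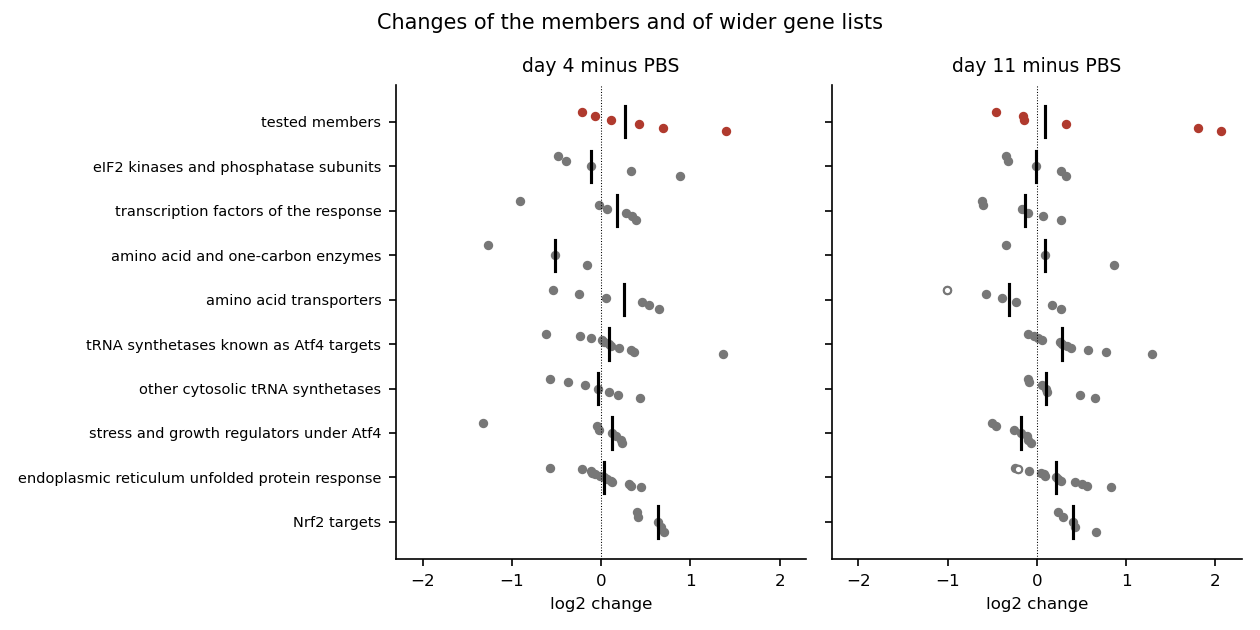
Log2 change against PBS at day 4 (left) and day 11 (right) for the tested members (red) and for the genes of 9 lists (grey), with 1 point per gene and a bar at each median. The open points are Slc1a5 and Edem1, detected on no day 11 array; Asns and Psat1 are the members farthest to the right at day 11, at 2.07 and 1.81, and the list medians run from -0.31 to 0.41 there.

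Upstream, the kinases and phosphatase subunits that set eIF2 phosphorylation had 5 tested genes, with 2 higher at day 11 and a median of -0.01 (-0.21 to 0.08 with 1 array left out). Ppp1r15a, the stress-induced phosphatase subunit GADD34, was lower on all day 11 arrays than in PBS, by -0.34 (limma adjusted p 0.635). Ppp1r15b, its constitutive relative, changed by 0.32 at day 11, with a range of 0.12 to 0.53 set by PBS replicates 3 and 1, and by 0.89 at day 4. Impact, an inhibitor of the amino acid sensor kinase Gcn2, changed by -0.33 at day 11, or -0.15 without day 11 replicate 2. Eif2ak4, which encodes Gcn2, was detected on no array, and Eif2ak3, the kinase of the endoplasmic reticulum, was below the filter.

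Among 6 transcription factors of the response, 2 were higher at day 11, with a median of -0.13 (-0.32 to -0.01 with 1 array left out). Cebpb, a C/EBP partner of Atf4, read 9.26, 9.20 and 9.20 in PBS, 9.60, 9.52 and 9.56 at day 4, and 8.32, 8.62 and 8.92 at day 11. The day 4 arrays were all above PBS and the day 11 arrays all below it. The change was 0.34 (limma adjusted p 0.801) at day 4, -0.60 (adjusted p 0.456) at day 11 and -0.94 (SE 0.258, adjusted p 0.581) from day 4 to day 11. Cebpg, another dimer partner, changed by -0.61 at day 11, with a range of -0.98 to -0.37 set by PBS replicates 3 and 1, and by -0.91 at day 4. Atf5, an Atf4 relative induced by the same pathway, changed by 0.27 at day 11, and by 0.09 without day 11 replicate 3.

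The other enzymes of amino acid and one-carbon metabolism gave little to set beside Asns and Psat1, since 3 of 12 were tested and each rested on single arrays. Shmt2, the mitochondrial serine hydroxymethyltransferase, changed by 0.87 at day 11 (limma adjusted p 0.552), but by 0.37 without day 11 replicate 3. Mthfd2, a mitochondrial folate enzyme, changed by 0.09 at day 11, with a range of -0.16 to 0.47 without PBS replicates 1 and 2. At day 4 it changed by -1.27, and by -0.38 without day 4 replicate 1. Gpt2, an alanine aminotransferase, changed by -0.34 at day 11, by -0.87 without PBS replicate 1 and by 0.28 without PBS replicate 3. Psph, the last enzyme of serine synthesis, was detected on no array, as were Pck2, Cbs and Aldh1l2. Of the 3 steps from glycolytic intermediate to serine, only the Psat1 step was therefore measured above background.

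Of 6 tested amino acid transporters other than Slc7a11, 2 were higher at day 11, with a median of -0.31 (-0.40 to -0.23 with 1 array left out). Slc1a5, a glutamine transporter, read 7.64, 6.42 and 5.70 in PBS, 7.45, 6.10 and 7.57 at day 4, and 5.51, 5.71 and 5.52 at day 11. It was detected on no day 11 array and on every day 4 array, and the day 4 level was at least 1.49-fold higher than the day 11 level (limma adjusted p 0.700). For this bound each day 11 array is set to its dimmest detected signal, or to the probe's own where that is higher. PBS spread across the detection limit, and no fold is given against it. The other tested Slc1a5 probes, with lower means than the one used, were also lower at day 11 than in PBS and at day 4. Slc7a6 changed by -0.57 at day 11, and by -0.16 without PBS replicate 2. Slc38a2, a neutral amino acid transporter induced by starvation, changed by -0.39, with a range of -0.63 to -0.11 without PBS replicates 2 and 3.

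The tRNA synthetases known as Atf4 targets were mostly above PBS at day 11, with 9 of 11 tested genes higher and a median of 0.28, against 8 of 11 and 0.09 at day 4. Eprs, which charges glutamate and proline tRNAs, read 7.85, 7.89 and 7.88 in PBS, 8.18, 8.02 and 8.42 at day 4, and 8.59, 8.66 and 8.69 at day 11. Its groups did not overlap at either day, and the change was 0.77 (SE 0.245, limma adjusted p 0.340) at day 11 and 0.33 (adjusted p 0.793) at day 4. Another Eprs probe changed by 0.47 at day 11 and -0.01 at day 4.

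Aars, the alanine synthetase, read 5.60, 7.44 and 7.19 in PBS, 7.39, 8.14 and 8.79 at day 4, and 7.86, 8.20 and 8.05 at day 11. Its change was 1.29 (SE 0.504, limma adjusted p 0.416) at day 11 and 1.36 (adjusted p 0.538) at day 4, and without PBS replicate 1 these were 0.72 and 0.79. Tars, the threonine synthetase, changed by 0.58 at day 11, and its other probe by 0.45. With 1 array left out, 7 to 10 of the 11 genes were higher at day 11, with medians of 0.17 to 0.43, and 5 to 8 at day 4, with medians of -0.03 to 0.30.

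The synthetases not on that list gave 5 of 7 higher at day 11, with a median of 0.11, and 3 to 6 of 7 with 1 array left out, with medians of -0.11 to 0.19. Rars changed by 0.66, Hars by 0.49 and Kars by 0.12. Without PBS replicate 1 these were 0.08, 0.17 and 0.34, and Kars turned to -0.14 without PBS replicate 2. The probes disagreed as well: the other tested probe of Rars changed by 0.04, that of Hars by -0.63 and that of Kars by -0.17. Whether the 2 synthetase lists differ was not tested.

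Stress and growth regulators under Atf4 were below PBS at day 11 in 7 of 7 tested genes, with a median of -0.18, while 4 of 7 were above it at day 4. The day 11 count rested on single arrays: with 1 array left out it was 5 to 7 of 7, with medians of -0.36, without PBS replicate 1, to -0.05, without day 11 replicate 2. No gene of the list passed the adjusted threshold at either time. Atg5 was lower by -0.09 at day 11 on the probe used, but higher by 0.37 on its other tested probe. The other tested probes of Vldlr were lower, as was the one used. Map1lc3b, the autophagosome protein LC3B, was lower on all day 11 arrays, by -0.50 (limma adjusted p 0.514). Eif4ebp1, a translation repressor that mTORC1 inactivates, read 8.17, 7.17 and 6.08 in PBS and changed by -0.45 at day 11 and -1.32 (adjusted p 0.540) at day 4, when all arrays were below PBS. Without PBS replicate 1 these became 0.06 and -0.80. Sqstm1, the autophagy receptor p62, changed by -0.25 at day 11, and by -0.09 without day 11 replicate 3.

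Genes of related stress pathways were set beside these. The unfolded protein response of the endoplasmic reticulum, which feeds into Atf4 through Perk, had 10 of 13 tested genes higher at day 11, with a median of 0.21, and 7 of 13 at day 4, with a median of 0.03. With 1 array left out, 9 to 11 were higher at day 11, with medians of 0.07 to 0.25. Manf changed by 0.83, or 0.52 without PBS replicate 1, while Pdia4 (0.56) and Xbp1 (0.50) were above PBS on all day 11 arrays. No gene of this list or of the next passed the adjusted threshold.

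The Nrf2 targets of the antioxidant response, a pathway that also drives Slc7a11, were higher in 5 of 5 tested genes at both times, with medians of 0.41 at day 11 and 0.64 at day 4. Without PBS replicate 1, 3 of 5 were higher at day 11, with a median of 0.14, and 5 of 5 at day 4, with a median of 0.30. Hmox1 changed by 0.66, Gclc by 0.43 and Txnrd1 by 0.41 at day 11, and without PBS replicate 1 these were 0.36, -0.06 and 0.30. Of the 3, Txnrd1 was above PBS on all day 11 arrays.

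The genes whose values followed Asns most closely were ranked by Pearson's r over the 9 arrays, given here as a description because the day 11 arrays stand apart for Asns and any gene high at day 11 scores well. Tpbg, a leucine-rich membrane glycoprotein, led with 0.961, followed by Lgals9 (galectin-9) with 0.949, Mrpl16, a mitochondrial ribosomal protein, with 0.939, Lgals1 (galectin-1) with 0.938 and Ddx1, an RNA helicase, with 0.936. Over the 6 PBS and day 4 arrays alone the values were 0.936, 0.705, 0.834, 0.751 and 0.926. These 6 are among the 9 arrays that chose the genes, so the values are no separate check. The Asns probe was detected on only 1 of 3 PBS arrays and 2 of 3 day 4 arrays. Tpbg read 7.10, 8.26 and 8.24 in PBS, 7.87, 8.51 and 8.34 at day 4, and 8.91, 9.25 and 9.46 at day 11, so it shared with Asns both a low PBS replicate 1 and high day 11 arrays.

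Among the other members, Psat1 followed Asns with an r of 0.780 over 9 arrays and 0.949 over the 6 PBS and day 4 arrays. Both genes were lowest on PBS replicate 1, where neither was detected, and highest among the day 4 arrays on replicate 2. For the remaining tested members r over 9 arrays was 0.109 for Slc7a11, -0.128 for Sesn2, -0.137 for Ddit3 and -0.447 for Atf4. Over the 6 PBS and day 4 arrays it was 0.381, 0.320, -0.114 and 0.487, so the sign turned for Sesn2 and Atf4.

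Some markers of other cells and of division also differed at day 11, and their part in the Asns values was not tested. Ighg1, an immunoglobulin heavy chain gene, read 5.29, 4.81 and 4.80 in PBS, 4.92, 4.80 and 5.19 at day 4, and 10.04, 9.80 and 8.35 at day 11. Of 9 plasma cell markers named on the array, 7 were detected on some array, Tnfrsf17 and Derl3 on none. Their summed linear level was 814 to 989 in PBS, 573 to 1270 at day 4 and 912 to 2780 at day 11. Of the 5 tested ones, 4 were higher at day 11 than in PBS, with a median of 0.64. Pou2af1 read 9.29, 8.33 and 9.23 in PBS, and 10.21, 10.34 and 8.19 at day 11. Mzb1 was detected on day 11 replicates 1 and 2 only, at 6.61 and 7.01. Jchain, which joins secreted immunoglobulin chains, was the tested marker that was lower, by -0.43. It read 6.94, 6.13 and 6.89 in PBS, 6.12, 7.04 and 6.05 at day 4, and 6.70, 7.09 and 4.86 at day 11. Within day 11, replicate 3 had the highest Asns, 7.99, and the lowest Ighg1, Jchain, Pou2af1 and Irf4. Sdc1, the other tested marker, went the other way, at 5.31, 6.00 and 6.69 on day 11 replicates 1 to 3. It was detected on 1 of these arrays.

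Birc5, a gene of dividing cells, read 4.68, 4.76 and 5.88 in PBS, 6.19, 7.48 and 6.01 at day 4, and 7.76, 8.46 and 7.87 at day 11. The summed level of the proliferation list was 647 to 1230 in PBS, 1100 to 1500 at day 4 and 1880 to 2610 at day 11, with 8 of 10 markers detected on some array. Of 7 tested markers of the list, 6 were higher than PBS at day 11, with a median of 1.7, and 6 at day 4, with a median of 0.76. Cdk1 was lower at day 11, by -0.47, and Aurka at day 4, by -0.23. At day 4, Birc5 and Rrm2 lay above PBS on every array. Aurka, Plk1, Cdk1, Mcm5 and Tyms overlapped PBS there, as Asns did. In the myeloid list, with 8 of 10 markers detected on some array and Itgam on none, the summed level was 3510 to 4470 in PBS, 1940 to 3090 at day 4 and 3240 to 5570 at day 11, so day 4 lay below PBS and day 11 overlapped it.

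The remaining lists mark T cells, B cells, endothelium and melanocytes. T cell markers, with 6 of 7 detected on some array, summed to 469 to 645 in PBS, 317 to 453 at day 4 and 373 to 680 at day 11. B cell markers, with 3 of 6 detected and Pax5 on no array, summed to 221 to 444, 185 to 341 and 304 to 486. The endothelial list, which also holds the FRC marker Pdpn, summed to 1120 to 1570, 1350 to 1430 and 1670 to 2250, with Cdh5, Kdr and Lyve1 detected on no array. Pdpn made up most of that sum, at 9.63, 9.70 and 9.99 in PBS and 10.32, 10.47 and 10.75 at day 11. The other tested genes of the list, Pecam1 and Tie1, were lower at day 11 than in PBS, and neither was detected on a day 11 array. Of 7 melanocyte lineage genes, 5 were detected on no array (Mlana, Tyr, Tyrp1, Dct and Sox10), and the list summed to 975 to 2620, 1090 to 2210 and 1130 to 1380. Most of that sum was 1 gene, Mitf, which was detected on all 9 arrays. It read 9.58, 10.08 and 11.24 in PBS, 9.84, 10.46 and 10.97 at day 4, and 10.23, 9.91 and 10.15 at day 11. Pmel was detected on 2 arrays.

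**Figure D4:**
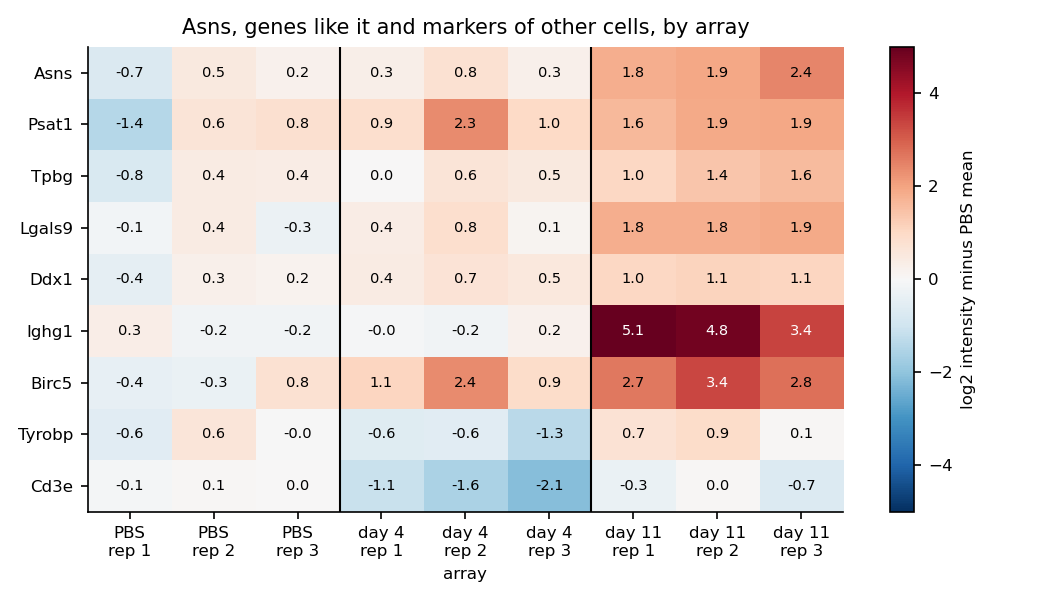
Log2 intensity minus the PBS mean for Asns, Psat1, 3 of the genes most like Asns, and 4 markers of plasma cells (Ighg1), division (Birc5), myeloid cells (Tyrobp) and T cells (Cd3e), with 1 column per array and each difference printed in its cell. Asns is highest on day 11 replicate 3, where Ighg1, Tyrobp and Cd3e are the lowest of the day 11 arrays and Birc5 is not.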

How the data were processed

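The deposited table of raw values held a linear intensity for each of 45281 bead probes on 9 arrays, with no normalization between arrays, and a detection p-value beside each, per the file headers. The table that the authors processed also holds linear intensities, and each array's median in it is 113. Per the submitters' processing notes lumi was used. That table served here as an alternative.

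The neqc function of limma 3.58.1 (R 4.3.3) corrected the background of the raw intensities, quantile normalized them and took log2 after adding 16. Probes with a detection p under 0.01 on 3 or more arrays were tested, 16577 in all, and the probe with the highest mean stood for each of 8819 genes. A single limma fit (lmFit, eBayes) over the 9 arrays, with 6 residual degrees of freedom, gave each comparison, and p-values were adjusted by Benjamini-Hochberg over the 16577 probes and called at 0.05. Intervals are 95% intervals of that fit. The number of arrays limits the precision, and p-values measure the spread between animals. The pipeline was tested on simulated data.

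Of the probes, 34885 had 1 symbol in the platform annotation table and 18 had several; 34807 were matched to the RefSeq gene table of GRCm38.p6. Promoter windows are from RefSeq. The members and the lists were chosen with earlier results of these data known, among them the day 11 value of Asns. From each wider list the text names up to 3 tested genes with the largest change at day 11 against PBS; the genes like Asns are the 5 with the highest correlation, leaving out clone and locus symbols. Genes named beyond that rule, because they were not detected, mark a cell type or have further tested probes, were picked after their values were seen.

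The alternatives were raw log2 intensities without background correction, the 75th percentile of each array in place of quantiles, the authors' values, and detection on at least 1 array, on at least 6 arrays or no filter. Further ones were a variance prior that follows intensity, weights for the arrays, replicate number as block, a fit of each pair of groups alone, averaged probes per gene, and each array left out in turn. For the named genes and the counts of the wider lists, leaving out each array was added after seeing the data.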

Additional observations from a re-analysis of the deposited data

Results flagged for a closer look

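Cebpb, the C/EBP partner of Atf4, lay on opposite sides of PBS at the 2 times. Every day 4 array lay above the PBS mean and every day 11 array below it, with changes of 0.34 and -0.60. Day 11 was below day 4 by -0.94, with a limma adjusted p of 0.581, so the difference did not pass the threshold over all probes. Both comparisons use the same PBS arrays.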

How the results depend on the processing

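Over 20 alternatives, no member and no gene of the wider lists passed the adjusted threshold in any comparison. The Asns difference stayed positive in all 20: it ran from 1.21 to 2.31 for day 11 against PBS (leaving out 1 array, 1.71 to 2.31), from 0.97 to 1.80 for day 11 against day 4 (leaving out 1 array, 1.45 to 1.80) and from 0.07 to 0.68 for day 4 against PBS. The smallest day 11 values came without background correction (1.21 and 0.97) and with the authors' values (1.24 and 1), and the cause was not tested. The count of all genes that passed was 1 at day 11 against PBS and 1 at day 11 against day 4. It was 0 and 0 with detection on at least 6 arrays, with no filter, with the replicate block and with only the groups compared, 14 and 2 with a variance prior that follows intensity, and 0 to 1 in each when 1 array was left out. The count for day 4 was 0 throughout. The median of the wider genes at day 4 was 0.06, and -0.1 to 0.19 when 1 array was left out, with the lowest value without PBS replicate 1. The members' median at day 11 against PBS, with Asns included, ran from -0.08 to 0.37. Slc7a11 at day 11 became -0.06 with the mean of its probes. No member passed with or without the replicate block. Samples with the same number showed no shared deviation (correlations from -0.047 to 0.060), so no pairing by number was seen. No block for the slide could be run, because the headers name none. Asns in PBS, Sesn2, Trib3, Chac1 and Phgdh lie near background, which limits what these arrays can show of them.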

Other observations

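Bcat1, the cytosolic aminotransferase that acts on branched-chain amino acids, is on none of the lists and was picked after its values were seen. It read 4.79, 6.93 and 6.02 in PBS, 5.91, 6.37 and 5.72 at day 4, and 7.35, 7.74 and 7.53 at day 11, so all day 11 arrays lay above the others. Its Pearson's r with Asns was 0.935 over the 9 arrays and 0.883 over the 6 PBS and day 4 arrays, as a description of these arrays with no test. Both genes were lowest on PBS replicate 1, where Asns was not detected.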
